A study of Homo sapiens with 12 samples.

Results

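Described here are 34 human interferon-stimulated genes, a named list of antiviral effectors, RNA sensors and transcription factors from which antigen presentation genes were left out. Each symbol matched 1 of the 61552 gene identifiers counted in every library. Of the 34, 33 had enough counts to be tested, among 18646 genes tested in all; the other was the chemokine gene CXCL10. They were measured by sequencing of poly-A RNA from RD cells, an established human line of embryonal rhabdomyosarcoma, a childhood sarcoma with features of developing skeletal muscle. The labels also give the line as FN-RMS. One group had received scrambled siRNA (n = 3 libraries) and the other EHMT1-specific siRNA (n = 3 libraries), in both cases with Lipofectamine RNAiMAX and 48 h before RNA collection. Every cell culture had thus been transfected with short double-stranded RNA, and no untransfected cells entered the comparison. EHMT1 (GLP) is a methyltransferase of histones that works as a pair with EHMT2 (G9a). All libraries came from a single line, and whether replicates were separate cultures is not said in the labels, so the spread behind each p-value may be a technical one. The 6 libraries of a SOX8 siRNA experiment in the same series were not analysed here.

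Interferons are secreted proteins that warn cells of viral infection. Type I and type III interferons act through receptors and the kinases JAK1 and TYK2 on a complex that holds STAT2 and IRF9 and binds a promoter sequence called the interferon-stimulated response element (ISRE), while interferon gamma acts at gamma-activated sites (GAS). The genes switched on in this way include sensors of foreign RNA, proteins that block viral entry, translation and release, and factors that pass the signal on, and in resting cells many of them are kept at a low level.

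The promoters of the listed genes were searched for these motifs, which many but not all of them carried. RefSeq windows on GRCh38.p14, from 250 bases before to 50 bases after a transcription start, were given for 26 of the 34 genes. The ISRE core, spelled TTTCNNTTTC and searched on both strands, was found in a window of 18 of these 26 genes (69.2%), against 4.38% of the 27305 genes in the table. A GAS motif, TTCNNNGAA, was found for 8 of the 26 (30.8%), against 9.38% of all genes in the table. In TTTCNNTTTC a match on the other strand reads GAAANNGAAA. No ISRE core lay in the windows of OAS1, STAT2, IRF1, IRF9, RIGI, IFI35, IFI16 and SP100, which says only that these letters are not in these windows. IFIT2, IFITM2, MX2, OAS2, OASL, IRF7, DHX58 and USP18 were not searched.

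The stretches printed here run from 160 bases before the start through the first 4 transcribed bases, on the strand of the gene, with letters of an ISRE core match in capitals. The first pair stands for abundant genes that were not called, the next pair for genes that fell, and the last 4 for genes that rose, with and without a match.
ISG15 (chr1:1013337-1013500, plus strand): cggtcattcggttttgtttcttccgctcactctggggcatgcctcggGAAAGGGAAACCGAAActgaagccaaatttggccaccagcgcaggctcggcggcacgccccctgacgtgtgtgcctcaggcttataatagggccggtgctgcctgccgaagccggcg
IFIT1 (chr10:89392463-89392626, plus strand): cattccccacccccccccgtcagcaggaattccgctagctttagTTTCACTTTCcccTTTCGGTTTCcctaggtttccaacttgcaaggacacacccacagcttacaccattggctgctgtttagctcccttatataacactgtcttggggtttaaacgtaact
IFIT3 (chr10:89327837-89328000, plus strand): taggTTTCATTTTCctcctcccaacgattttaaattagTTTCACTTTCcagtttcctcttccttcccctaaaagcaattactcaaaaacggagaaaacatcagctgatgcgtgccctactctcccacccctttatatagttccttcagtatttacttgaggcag
IFIH1 (chr2:162318681-162318844, minus strand): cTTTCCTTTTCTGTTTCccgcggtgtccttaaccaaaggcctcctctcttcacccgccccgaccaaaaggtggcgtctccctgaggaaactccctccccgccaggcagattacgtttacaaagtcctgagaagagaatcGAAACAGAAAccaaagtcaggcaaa
IFITM1 (chr11:313880-314043, plus strand): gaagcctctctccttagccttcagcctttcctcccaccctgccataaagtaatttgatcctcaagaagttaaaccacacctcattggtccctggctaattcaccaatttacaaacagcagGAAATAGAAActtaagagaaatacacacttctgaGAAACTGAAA
BST2 (chr19:17405627-17405790, minus strand): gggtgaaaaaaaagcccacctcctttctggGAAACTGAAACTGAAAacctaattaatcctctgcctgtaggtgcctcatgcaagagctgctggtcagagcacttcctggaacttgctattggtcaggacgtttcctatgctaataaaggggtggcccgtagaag
IFI16 (chr1:159008831-159008994, plus strand): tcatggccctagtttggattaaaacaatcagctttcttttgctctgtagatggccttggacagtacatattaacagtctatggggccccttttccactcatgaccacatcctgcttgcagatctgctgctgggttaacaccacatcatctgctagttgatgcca
SP100 (chr2:230416041-230416204, plus strand): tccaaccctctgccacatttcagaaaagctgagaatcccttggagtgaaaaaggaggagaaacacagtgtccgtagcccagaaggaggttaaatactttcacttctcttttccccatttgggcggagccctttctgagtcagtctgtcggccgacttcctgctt

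In ISG15 and BST2 the 2 matches overlap, so 16 bases carry both, and IFIH1 has 3 matches, of which 2 overlap. Those of IFITM1 lie close to the start, the first beginning 40 bases before it, whereas those of IFIT3 begin 156 and 122 bases before it. PARP9 and DTX3L are transcribed away from each other from starts 38 bases apart, and these starts share 1 match. PARP9 has another start, from which transcription runs across the DTX3L start, and its window held no match.

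Several of the genes were abundant in RD cells that had received scrambled siRNA. Levels are compared between genes as RPKM, that is, counts scaled by library size and by kilobase of exon. The length joins the exons of all annotated transcripts, which made 941 bases for ISG15, 4147 for IFI27 and 8616 for MX1. Where RD cells use shorter transcripts, which was not examined, RPKM is a lower estimate. ISG15, a ubiquitin-like modifier, stood highest, at 187 ± 6.11 RPKM (SD, n = 3), above 99.3% of tested genes. IFITM3, which blocks the entry of viruses into cells, followed at 174 ± 19.3 RPKM, and these first places did not differ beyond their spread. IFI44 and IFIT3 lay at 115 ± 8.01 and 107 ± 5.58 RPKM. In all, 4 of the 34 genes were at 100 RPKM or more, 9 between 10 and 100, 15 between 1 and 10, and 6 under 1, and 24 exceeded the median tested gene at 3.03 RPKM.

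The 6 lowest were IFI27 at 0.487, IRF9 at 0.466, RIGI at 0.398, MX1 at 0.320, MX2 at 0.0752 and CXCL10 at 0.0142 RPKM with scrambled siRNA. MX1 and RIGI, well known as strongly induced genes, were thus far below ISG15 and IFIT3 in the same cells. The level of IRF9 may be a lower estimate, because the span of another annotated gene overlaps it on the same strand. Reads in exons of both genes are counted for neither, but whether exons overlap was not examined. The same limit holds for IFIT2, IFITM1, IFITM2, STAT2 and SP100 in the GENCODE 29 models. A gene on the other strand overlaps 17 of the 34, which can also remove reads from the unstranded count. The second strand column exceeded it for MX1 (812 against 684 counts over the 6 libraries), OAS1 (3962 against 3326), IRF1 (3945 against 2696), DTX3L and PARP9, so these levels are lower estimates. Overlaps with later gene models were not examined. CXCL10 had 0, 2 and 0 counts in scrambled replicates 1, 2 and 3 and 1, 3 and 5 counts in EHMT1 siRNA replicates 1, 2 and 3, too few to test.

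**Figure D1:**
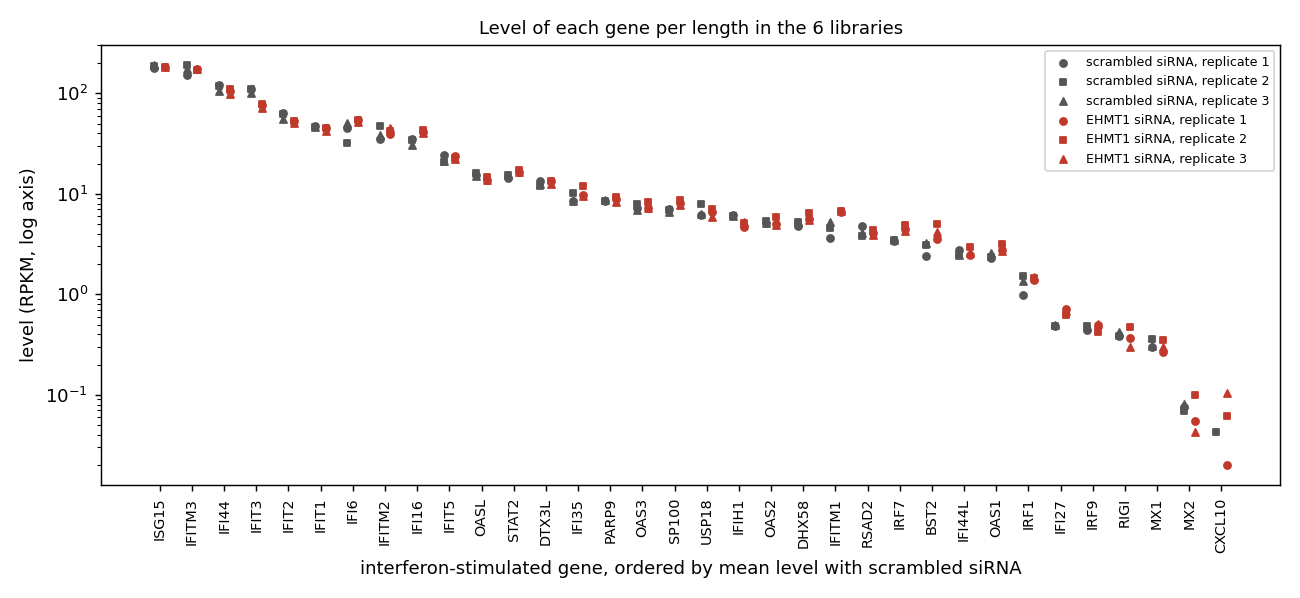
Level of each of the 34 genes in RPKM (log axis) in the 6 libraries, ordered by the mean with scrambled siRNA; grey marks are scrambled and red marks EHMT1 siRNA libraries, with the replicate given by the shape of the mark. ISG15 and IFITM3 lead at 187 and 174 RPKM and MX2 and CXCL10 come last; the CXCL10 values of 0 in scrambled replicates 1 and 3 cannot be drawn on a log axis.

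Before the comparison, the libraries were checked. They held 40639655 to 47258481 gene counts each, and EHMT1 itself fell from 139.0 ± 14.7 to 55.1 ± 2.26 CPM (counts scaled by library size; SD, n = 3 each), or -1.34 on the log2 scale (edgeR adjusted p = 9.13e-09, SE 0.072). Its partner EHMT2 fell by 0.21 (edgeR adjusted p = 0.0334), a call that ended when any single library of the EHMT1 siRNA group was left out. Scrambled replicate 2 stood apart, at -36.4 on the first principal component against -16.0 and -9.16 for the other scrambled libraries, and had the highest mitochondrial share of counts (5.41%, against 4.29% to 4.83%). Its influence on the counts of called genes is given beside them. Of 14 muscle markers of the line, 12 could be tested, among them DES at 311 and MYOD1 at 151 mean CPM with scrambled siRNA. The others were MYF5, with 0 counts, and MYF6, with 17 counts over the 6 libraries.

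With EHMT1 siRNA the interferon-stimulated genes moved in both directions and by less than 2-fold. IFIT3, IFIT2 and IFIH1 fell, and IFITM1, BST2, IRF7, IFI16 and SP100 rose. That made 8 of the 33 tested genes (24.2%) at an edgeR adjusted p under 0.05, against 12.4% of all 18646 tested genes. In the separate directions 5 rose, where 5.81% of tested genes rose, and 3 fell, where 6.54% fell. The other 25 did not pass the test. No test was made of whether the list's share differs from that of other genes.

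The median log2 change of the 33 was 0.04 and that of all tested genes 0.00, and the median absolute log2 changes were 0.14 and 0.15. Changes ran from -0.50 for IFIT3 to 0.59 for IFITM1. For 15 of the 33 genes the groups were fully separated, 10 with higher and 5 with lower values after EHMT1 siRNA, where 30.9% of all tested genes were separated in this way. The summed level of the 34 genes was 2340 to 2463 CPM in scrambled and 2287 to 2433 CPM in EHMT1 siRNA libraries, and these ranges overlap. Without scrambled replicate 2, 11 of the 33 passed the test, against 18.5% of all genes tested then. They were the same 8 genes together with STAT2, IFITM2 and IFI35.

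**Figure D2:**
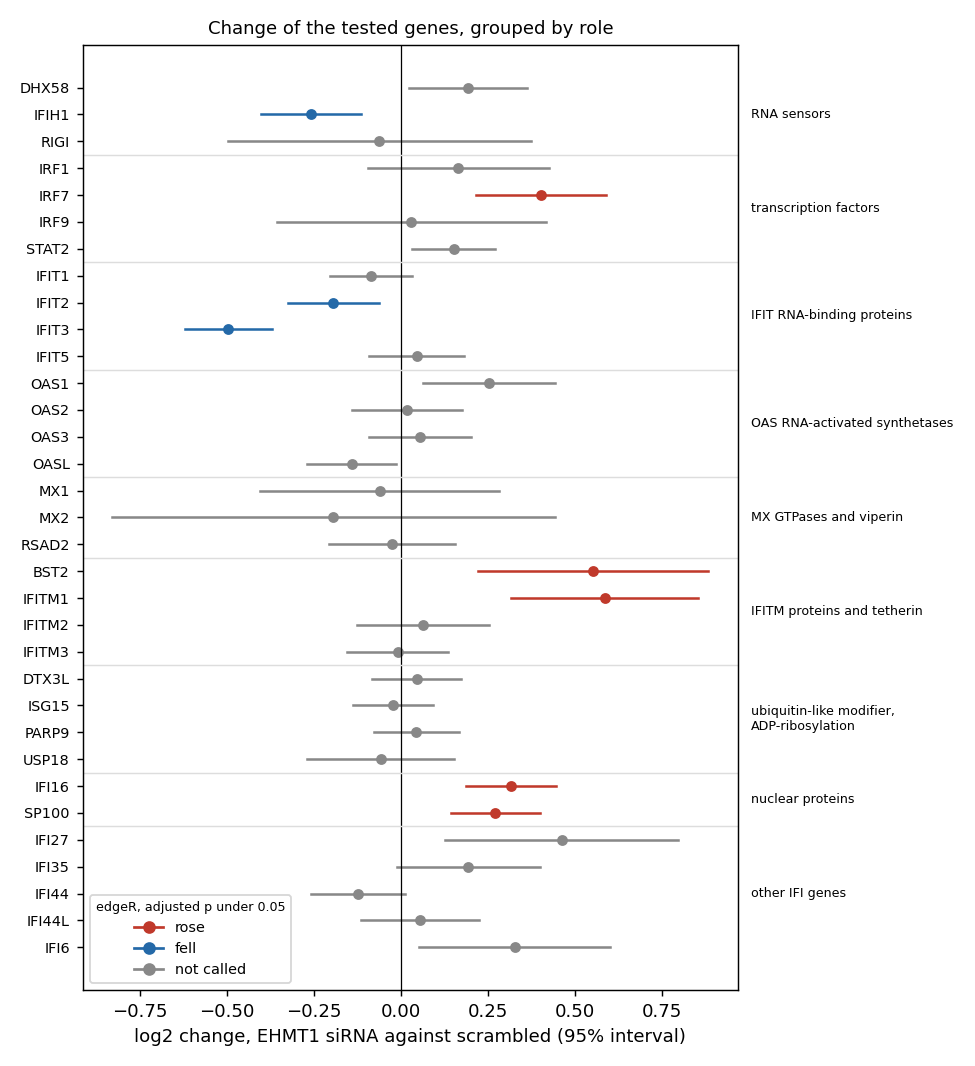
Log2 change with EHMT1 siRNA against scrambled siRNA (edgeR, x axis) for the 33 tested genes, grouped by role; dots are estimates, lines 95% intervals, red marks genes that rose, blue marks genes that fell and grey marks genes that did not pass the test. Called genes lie on both sides of 0, from -0.50 for IFIT3 to 0.59 for IFITM1, and the widest interval is that of MX2, from -0.83 to 0.44.

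Among the RNA sensors, IFIH1 (ENSG00000115267, also called MDA5), which recognises long double-stranded RNA, was lower with EHMT1 siRNA. It was at 31.3, 30.6 and 30.5 CPM in scrambled replicates 1, 2 and 3 and at 24.0, 26.4 and 26.9 CPM in EHMT1 siRNA replicates 1, 2 and 3. All 3 libraries with EHMT1 siRNA were thus lower than any scrambled one. IFIH1 changed by -0.26 on the log2 scale (SE 0.068, 95% interval -0.40 to -0.11, edgeR adjusted p = 0.0189). Leaving out any single library of the EHMT1 siRNA group ended this call.

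DHX58 (LGP2), which regulates the other sensors of its family, was at 18.3, 20.3 and 20.3 CPM with scrambled siRNA and at 21.4, 24.6 and 21.2 CPM with EHMT1 siRNA. The groups did not overlap, but the log2 change of 0.19 (95% interval 0.02 to 0.36) had an edgeR adjusted p of 0.139. RIGI, the sensor of short RNA ends, was scarce, at 1.69, 1.68 and 1.84 CPM with scrambled siRNA and 1.61, 2.07 and 1.29 CPM with EHMT1 siRNA. Its groups overlapped, and the interval of its log2 change, -0.50 to 0.37, was wide. The ratio of IFIH1 to DHX58 within each library was 1.71, 1.51 and 1.505 with scrambled siRNA and 1.13, 1.07 and 1.27 with EHMT1 siRNA, without overlap (exact two-sided permutation p = 0.1, the smallest that 3 against 3 allows; this ratio was chosen after the values were seen).

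Of the 4 transcription factors on the list, 1 rose and 0 fell, where 5.81% of all tested genes rose and 6.54% fell. IRF7 (ENSG00000185507), which drives later waves of interferon production, was at 8.91, 9.14 and 9.04 CPM in scrambled replicates 1, 2 and 3. With EHMT1 siRNA it was at 11.7, 12.8 and 11.3 CPM, above each scrambled library. IRF7 changed by 0.40 on the log2 scale (SE 0.089, 95% interval 0.21 to 0.59, edgeR adjusted p = 0.00683), and the call ended without EHMT1 siRNA replicate 2.

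STAT2, a subunit of the complex that binds the ISRE, had values of 88.2, 93.2 and 94.6 CPM with scrambled and 101, 106 and 100.4 CPM with EHMT1 siRNA. Its groups did not overlap, and its log2 change was 0.15 (95% interval 0.03 to 0.27, edgeR adjusted p = 0.0922). IRF9, the DNA-binding subunit, was at 1.67, 1.85 and 1.79 CPM and at 1.87, 1.62 and 1.93 CPM in the groups, which overlapped (log2 change 0.03, 95% interval -0.36 to 0.42). IRF1, a factor induced by interferon gamma, was at 7.76, 11.9 and 10.6 CPM with scrambled siRNA and 10.8, 11.4 and 11.6 CPM with EHMT1 siRNA. The low scrambled replicate 1 set most of its log2 change of 0.16, which was -0.00058 without that library. An antisense gene overlaps IRF1, and on the second strand alone its log2 change was 0.04.

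The IFIT genes, whose products bind foreign RNA and hinder its translation, differed among themselves. IFIT3 (ENSG00000119917), which stabilises the IFIT1 protein on RNA, had the strongest fall of the list. It was at 291, 290.5 and 265 CPM in scrambled replicates 1, 2 and 3 and at 203, 206 and 190.1 CPM in EHMT1 siRNA replicates 1, 2 and 3. The highest EHMT1 siRNA library was well below the lowest scrambled one, and the mean fell from 282 ± 14.7 to 199.9 ± 8.62 CPM (SD, n = 3 each), 70.9% of its level. The log2 change was -0.50 (SE 0.059, 95% interval -0.62 to -0.37, edgeR adjusted p = 4.46e-05), and the gene was called with any 1 library left out.

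IFIT2 (ENSG00000119922) was at 259, 252 and 225 CPM with scrambled siRNA and at 219.7, 218 and 206 CPM with EHMT1 siRNA. These groups lay close together without overlapping, and the log2 change of -0.20 (SE 0.062, edgeR adjusted p = 0.0478) was near the threshold. Leaving out scrambled replicate 1, or any single library of the EHMT1 siRNA group, ended the call. Upper quartile factors with all 6 libraries ended it as well.

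IFIT1, which recognises RNA lacking the methyl marks of host caps, was at 219, 213 and 214 CPM with scrambled and 209, 208 and 193 CPM with EHMT1 siRNA. The EHMT1 siRNA libraries were the lower ones, but the log2 change was only -0.09 (95% interval -0.20 to 0.03, edgeR adjusted p = 0.362). IFIT5 was at 97.2, 83.7 and 85.3 CPM and at 94.6, 90.5 and 89.4 CPM, with overlapping groups and a log2 change of 0.04 (95% interval -0.09 to 0.18). The ratio of IFIT3 to IFIT1 within each library showed the difference between these neighbours directly. It was 1.32, 1.36 and 1.24 with scrambled siRNA and 0.971, 0.994 and 0.987 with EHMT1 siRNA, so IFIT3 went from above IFIT1 to level with it in CPM. The ratios of IFIT3 to IFIT2 and to IFIT5 were likewise lower in each EHMT1 siRNA library than in each scrambled one, by 0.30 and 0.54 on the log2 scale, against 0.41 for IFIT1 (exact two-sided permutation p = 0.1 for each of the 3 ratios, the smallest possible; chosen after the values were seen).

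No member of the OAS family, whose enzymes make small messengers when they bind double-stranded RNA, passed the test. OAS1 was at 11.3, 11.7 and 12.9 CPM with scrambled siRNA and at 13.7, 15.6 and 13.5 CPM with EHMT1 siRNA, without overlap. Its log2 change was 0.25 (95% interval 0.06 to 0.44, edgeR adjusted p = 0.0758), and on the second strand alone it was 0.28 and passed (edgeR adjusted p = 0.0434). OAS2 was at 32.4, 33.8 and 32.1 CPM with scrambled and 31.7, 37.1 and 30.6 CPM with EHMT1 siRNA. For OAS3 the values were 60.0, 64.7 and 57.4 CPM and 59.9, 69.1 and 60.0 CPM. The groups of both overlapped, with EHMT1 siRNA replicate 2 the highest library for each, and the log2 changes were 0.02 and 0.05. OASL, a family member without enzyme activity that aids RNA sensing, was at 54.6, 56.5 and 52.9 CPM and at 47.8, 52.3 and 48.5 CPM, lower without overlap, at a log2 change of -0.14 (95% interval -0.27 to -0.01, edgeR adjusted p = 0.147).

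The GTPases MX1 and MX2, which trap viral nucleocapsids, and RSAD2 (viperin), which makes a chain-terminating nucleotide, showed overlapping groups. MX1 was at 2.59, 3.08 and 2.61 CPM with scrambled and 2.32, 3.01 and 2.59 CPM with EHMT1 siRNA, and RSAD2 had a log2 change of -0.03 (95% interval -0.21 to 0.15). MX2, at 0.983, 0.901 and 1.06 CPM with scrambled and 0.710, 1.30 and 0.562 CPM with EHMT1 siRNA, was measured too loosely to set a direction (95% interval -0.83 to 0.44).

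Of the membrane proteins that restrict viruses, IFITM1 and BST2 rose. IFITM1 (ENSG00000185885) acts against viral fusion at the cell surface. It was at 3.95, 4.91 and 5.65 CPM in scrambled replicates 1, 2 and 3 and at 7.17, 7.26 and 7.30 CPM in EHMT1 siRNA replicates 1, 2 and 3. All EHMT1 siRNA libraries lay above the scrambled ones and close to each other. IFITM1 changed by 0.59 on the log2 scale (SE 0.127, 95% interval 0.32 to 0.85, edgeR adjusted p = 0.00615), the greatest rise on the list, and the gene was called with any 1 library left out. On the second strand alone the log2 change was 0.58 (edgeR adjusted p = 0.00607), while on the first strand it was 0.04. The share of IFITM1 strand counts on the second strand was 73.3% with scrambled and 80.2% with EHMT1 siRNA.

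BST2 (tetherin, ENSG00000130303), which holds budding virus particles at the membrane, was at 2.69, 3.43 and 3.60 CPM with scrambled siRNA and at 3.97, 5.59 and 4.66 CPM with EHMT1 siRNA. The groups did not overlap, and the EHMT1 siRNA libraries were the more scattered. The log2 change was 0.55 (SE 0.157, 95% interval 0.22 to 0.88, edgeR adjusted p = 0.0283), a call lost without scrambled replicate 1 or EHMT1 siRNA replicate 2 or 3.

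IFITM3 and IFITM2, the endosomal members of the family, did not follow IFITM1. IFITM3 was at 207, 259 and 238 CPM with scrambled and 233, 229.5 and 235 CPM with EHMT1 siRNA, a log2 change of -0.01 (95% interval -0.16 to 0.14). IFITM2 was at 54.4, 73.7 and 59.8 CPM and at 60.9, 65.2 and 70.1 CPM, a log2 change of 0.06 (95% interval -0.13 to 0.25). Scrambled replicate 2 was the highest library for both. The ratio of IFITM1 to IFITM3 in CPM was 0.0191, 0.0190 and 0.0238 with scrambled and 0.0307, 0.0316 and 0.0310 with EHMT1 siRNA, without overlap (exact two-sided permutation p = 0.1, the smallest possible; chosen after the values were seen). These genes are close copies, and reads that map equally to several of them were not counted.

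Both nuclear proteins on the list rose. IFI16 (ENSG00000163565), a sensor of nuclear DNA, was at 186, 183 and 163 CPM with scrambled siRNA and at 218, 229 and 214 CPM with EHMT1 siRNA. The groups were well separated, with scrambled replicate 3 the lowest. The log2 change was 0.32 (SE 0.062, 95% interval 0.19 to 0.45, edgeR adjusted p = 0.00291), and the gene was called with any 1 library left out.

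SP100 (ENSG00000067066), a component of nuclear PML bodies, was at 88.2, 87.1 and 82.3 CPM and at 102, 110.4 and 98.7 CPM in the groups. Every EHMT1 siRNA library was above every scrambled one. SP100 changed by 0.27 on the log2 scale (SE 0.060, 95% interval 0.14 to 0.40, edgeR adjusted p = 0.00722), and the call ended without EHMT1 siRNA replicate 2.

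**Figure D3:**
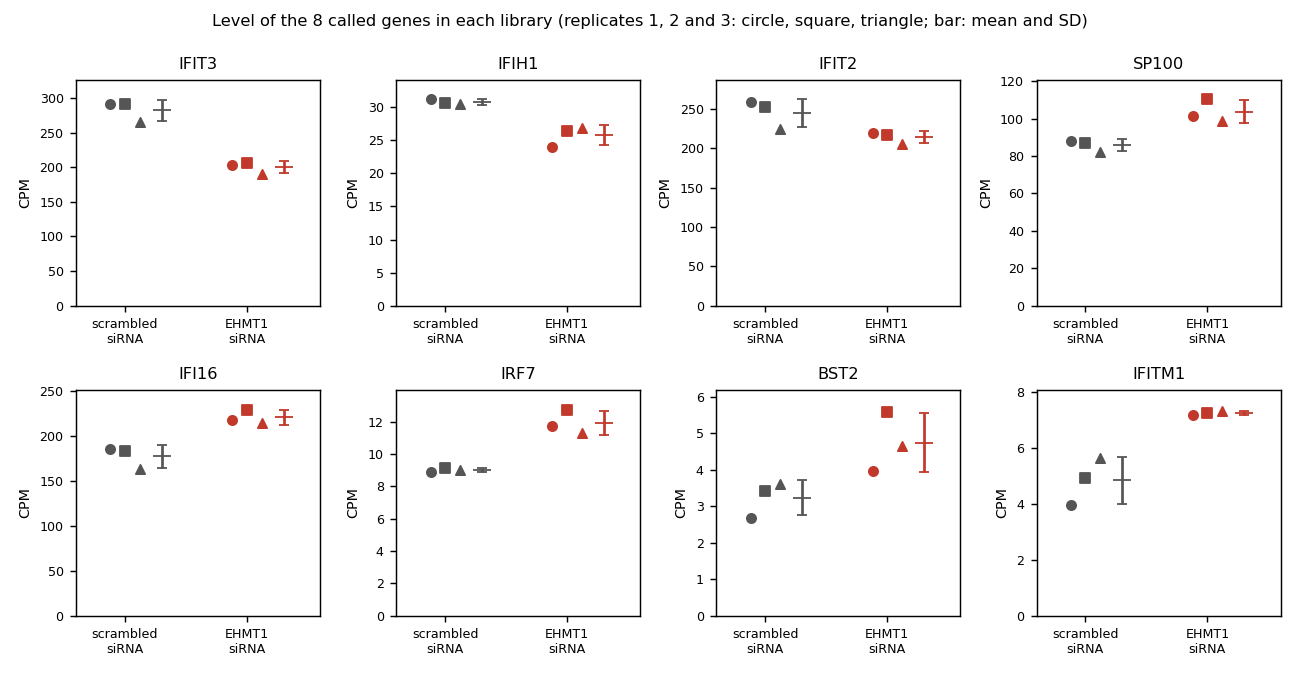
CPM of the 8 genes that passed the test in each library, ordered from the strongest fall to the strongest rise (y axes start at 0); circles, squares and triangles are replicates 1, 2 and 3, and the bars beside them show the mean and SD of each group (n = 3). In none of the 8 do the groups overlap; IFIT3 goes from 282 to 199.9 CPM and IFITM1 from 4.84 to 7.24 CPM.

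The ubiquitin-like modifier ISG15 and the genes that act with it stayed within the spread of the libraries. ISG15 was at 169.9, 176 and 181 CPM with scrambled and 172, 174 and 173 CPM with EHMT1 siRNA. The groups overlapped, and the 95% interval of its log2 change of -0.02 ran from -0.14 to 0.09, which bounds any change of this abundant transcript closely. USP18, the protease that removes ISG15 and dampens interferon receptor signalling, had a log2 change of -0.06 (95% interval -0.27 to 0.15). PARP9 and DTX3L, which form an ADP-ribosylating ubiquitin ligase and share the promoter region described above, both had a log2 change of 0.04.

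The remaining IFI genes are named for their induction, and none of the 5 passed the test. IFI27, a mitochondrial protein gene, was at 2.01, 2.00 and 2.05 CPM with scrambled siRNA and at 2.93, 2.60 and 2.81 CPM with EHMT1 siRNA. These groups did not overlap, and the log2 change of 0.46 (95% interval 0.13 to 0.79) had an edgeR adjusted p of 0.0665. IFI6, which guards the endoplasmic reticulum against viral replication, was at 39.3, 27.5 and 43.9 CPM and at 46.5, 47.2 and 45.1 CPM. Scrambled replicate 2 was low for IFI6, and the log2 change was 0.33 (95% interval 0.05 to 0.60, edgeR adjusted p = 0.120). It passed without scrambled replicate 3 (log2 change 0.47, edgeR adjusted p = 0.0207), and without scrambled replicate 2 the log2 change was 0.15 (edgeR adjusted p = 0.0849). IFI44, IFI44L and IFI35 had log2 changes of -0.12, 0.05 and 0.19 with overlapping groups.

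How far the calls rest on single libraries differed between the genes. With 1 library left out, 3 to 11 of the 33 passed, the fewest without EHMT1 siRNA replicate 2. The share of all tested genes called moved as well. It was 12.4% with all libraries, 4.9% without EHMT1 siRNA replicate 2 and 18.5% without scrambled replicate 2. IFIT3, IFITM1 and IFI16 were called in each of the 6 fits with 1 library left out, IRF7 and SP100 in 5, IFIH1 and BST2 in 3 and IFIT2 in 2. All 8 kept their direction in each of the 15 alternative fits.

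**Figure D4:**
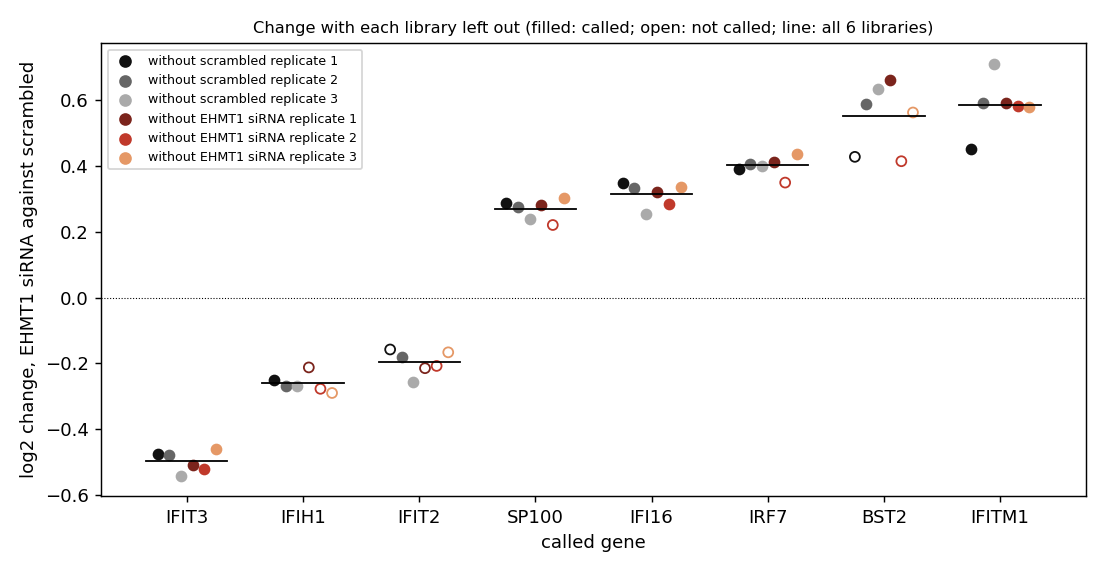
Log2 change with EHMT1 siRNA (y axis) of the 8 called genes in fits with 1 library left out; the colour gives the library, filled marks are called and open marks are not called (edgeR adjusted p under 0.05), and the line is the value with all 6 libraries. No mark crosses 0; IFIT3, IFITM1 and IFI16 have filled marks throughout, while IFIT2 has 2.

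The ISRE core was found in windows of genes that fell and of genes that rose, but few called genes had a window. IFIT3 and IFIH1, the 2 fallen genes with a window, both held it, and of the 4 risen genes with a window IFITM1 and BST2 held it while IFI16 and SP100 did not. The 17 tested genes with the core had a median log2 change of 0.04, from -0.50 to 0.59, and 9 of them were above 0. The 8 without it had a median of 0.18, from -0.06 to 0.32, and 7 of them were above 0. These counts are a description, and no test was made of them.

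The rest of the pathway was taken from lists of related genes. Among 22 interferon genes, 16 had 0 counts in all 6 libraries, where 3 counts correspond to 0.0641 to 0.0751 CPM, and IFNB1, the interferon made first by most cells, had 1 count in all. Only IFNL1 could be tested, at 85 counts over the 6 libraries (log2 change 0.33, edgeR adjusted p = 0.755). In the list of interferon receptors and their signalling, 17 genes were tested and 0 fell, where 6.54% of all tested genes fell. The receptor genes IFNAR2 and IFNLR1, with 28 and 43 counts over the 6 libraries, were too low to test. The feedback inhibitor SOCS1 was at -0.27, the phosphatase gene PTPN2 at -0.19 and the repressor IRF2 at 0.17, and none of these passed (edgeR adjusted p = 0.0718, 0.118 and 0.130).

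In the list of nucleic acid sensing genes, 21 were tested and 0 fell, with a median log2 change of 0.12. Of all tested genes 6.54% fell and 5.81% rose. The signalling genes IRF3, TICAM1 and STING1 rose by 0.25, 0.31 and 0.24 (edgeR adjusted p = 0.00802, 0.0146 and 0.0158), and each of these 3 calls was lost without EHMT1 siRNA replicate 2 and without replicate 3. TICAM1 and STING1 also lost theirs without EHMT1 siRNA replicate 1.

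Of 46 further interferon-stimulated genes tested, 12 rose and 2 fell, with a median log2 change of 0.05. That is 30.4% called, against 12.4% of all tested genes (5.81% rose and 6.54% fell), a difference that was not tested. The guanylate-binding protein genes GBP1, GBP2 and GBP3, which act against intracellular pathogens, rose by 0.78, 0.62 and 0.58 (edgeR adjusted p = 9.1e-05, 0.000269 and 0.00088), and HELZ2, a transcriptional coactivator, by 0.40. ISG20, an RNA exonuclease, TDRD7, UBA7, which activates ISG15, and LGALS3BP rose by 0.43, 0.36, 0.43 and 0.27. SP140L, PARP10 and TRIM38 rose by 0.27, 0.26 and 0.18, and TRIM22 rose by 1.44 from a mean of 0.204 to 0.553 CPM. APOL6 fell by 0.29 and HERC6 by 0.26. With 1 library left out, GBP1, GBP2, GBP3, HELZ2, ISG20, TDRD7 and APOL6 kept their calls in all 6 fits. UBA7, LGALS3BP and HERC6 kept theirs in 4, SP140L in 2, and PARP10, TRIM22 and TRIM38 in 1. On the second strand alone PARP10 and TRIM38 did not pass, and on the first strand the log2 change of PARP10 was -0.10.

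RNA of immune cells was sought because such cells express many of these genes. Of 20 immune cell markers, 6 could be tested and 4 had 0 counts in all 6 libraries, and PTPRC, the common leukocyte marker, had 28 counts in all. Their summed level was 4.55 to 5.06 CPM in scrambled and 5.49 to 5.76 CPM in EHMT1 siRNA libraries. ITGAX, an integrin of myeloid cells, rose from a mean of 0.258 to 0.882 CPM (log2 change 1.77, edgeR adjusted p = 0.00228). The summed muscle markers were at 1758 to 2013 CPM and at 2024 to 2108 CPM, and 3 of the 12 tested rose (CHRNG, CHRND and PAX7), where 5.81% of all tested genes rose. The part of either marker set in the changes of the interferon-stimulated genes was not tested.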

How the data were processed

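Libraries were made from bead-purified mRNA with the NEBNext Ultra RNA kit (per the labels' protocols). Per the submitters' processing notes, STAR 2.5 and HTSeq 0.6.1 were among the tools and hg19 was the build. The deposited values are raw counts per gene made by the authors, in the layout of STAR's gene count table, with an unstranded column (used here) and a column per strand. Of the 61552 identifiers, 58352 were in GENCODE 29, which gave exon lengths. Reads naming no gene (20.0% to 21.2%) were left out, and multimapping reads were not counted in genes. The second strand held 87.1% to 89.0% of strand counts.

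Sample titles gave the groups. The counts were fitted with edgeR 4.0.16 under R 4.3.3, after filterByExpr at a minimum count of 10, with TMM factors, a robust quasi-likelihood fit on group and its F test; p-values were adjusted over all tested genes (Benjamini-Hochberg, threshold 0.05). The SE is the absolute log2 change divided by the square root of F. CPM and RPKM use TMM-scaled totals of tested genes. The script was tested on simulated data. Pairs of libraries within a group differed beyond sampling noise (chi-square per degree of freedom 2.98 to 21.0), so each counted as 1 sample.

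The genes and lists were chosen with earlier results of these data known. Every member is accounted for; values in every library are given for called genes and their families, and from each related list the called genes and up to 4 with the smallest adjusted p are named, except some genes that are not reported here. Alternatives were RLE and upper quartile factors, no filter, a filter at 1 CPM in at least 3 libraries, limma-voom (limma 3.58.1), DESeq2 1.42.0, a replicate block, each strand column, leaving out each library and an adjusted p under 0.01.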

Additional observations from a re-analysis of the deposited data

How the results depend on the processing

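The count of 8 interferon-stimulated genes was 7 to 10 under other size factors, filters, tools, the second strand column and the replicate block. With a replicate block it was 10, IFI6 and OAS1 being added (edgeR adjusted p = 0.0399 and 0.0489), and 3106 genes were called in all, while 4 related-list genes fell. Same-numbered libraries had correlations of 0.056, 0.015 and 0.025 in their deviations from the group means. Those of other pairs ran from -0.044 to 0.019. Each EHMT1 siRNA library was closest to the scrambled library of its number, but scrambled replicate 2 was closest to EHMT1 siRNA replicate 3. Correlations this small do not settle whether replicate numbers pair the libraries.

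In the first strand column, which holds few of the counts, edgeR called 0 of 29 tested interferon-stimulated genes (0 rose, 0 fell; 1 higher and 2 lower at an unadjusted p under 0.05), 1 related-list gene (1 rose, 0 fell) and 177 genes in all (90 rose, 87 fell). At an adjusted p under 0.01, 5 of the 33 were called (1 fell), 10 related-list genes (9 rose, 1 fell) and 1017 genes (492 rose, 525 fell). With 1 library left out, 936 to 3548 genes were called (452 to 1625 rose, 484 to 1923 fell), 3 to 11 of the 33 (2 to 8 rose, 1 to 3 fell) and 8 to 27 of the related lists (7 to 23 rose, 1 to 5 fell); the lowest totals of genes and of the 33 came without EHMT1 siRNA replicate 2 and the highest without scrambled replicate 2.

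Signs changed under some alternative for 17 of the interferon-stimulated genes, none of them called with all libraries. In the first strand column the log2 change was 0.043 for IFITM3, -0.023 for OAS3, -0.0074 for STAT2, -0.011 for PARP9, -0.11 for DTX3L, -0.041 for IFI35 and, among related genes, -0.10 for PARP10. With upper quartile factors it was 0.0063 for IFITM3. With 1 library left out the change ran from -0.033 to 0.11 for IFI44L, -0.0012 to 0.11 for IFIT5, -0.032 to 0.19 for IFITM2, -0.095 to 0.061 for IFITM3, -0.17 to 0.022 for MX1, -0.63 to 0.032 for MX2, -0.073 to 0.069 for OAS2, and from -0.019 to 0.097 for OAS3, -0.00058 to 0.30 for IRF1, -0.021 to 0.10 for IRF9, -0.26 to 0.085 for RIGI, -0.13 to 0.053 for USP18, -0.096 to 0.067 for RSAD2, -0.0024 to 0.087 for DTX3L and, among related genes, -0.16 to 1.05 for IFNL1. The cause of these changes was not tested. Low counts limit MX2, RIGI, IRF9 and CXCL10, with 234, 431, 453 and 11 counts over the 6 libraries. MX1 and IFI27, also under 1 RPKM, had 684 and 608 counts. The SE of their log2 changes was 0.16 each, like that of the called gene BST2 with 1007 counts.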
